A study of Homo sapiens with 8 samples.

Results

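Long intergenic noncoding RNA genes that carry a plain LINC number were examined in NKM-1 cells treated with SF153 or with DMSO. Members were rows with the biotype lncRNA, a symbol made of LINC and digits, and a mean signal of 5 or more over all 8 libraries. This rule selected 81 of 265 LINC rows, 3742 lncRNA rows and 17912 rows in all. The 81 rows carry 80 symbols, because LINC00106 lies in a region shared by chromosomes X and Y and was listed at each. Members were thus selected on their mean signal over both treatments, so their general level is a property of the rule and not a result.

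NKM-1 is an established human myeloid leukemia cell line, labelled wildtype. The tested cells received SF153 at 30 uM for 48 h, and the control cells received the solvent DMSO for the same 48 h. Each treatment had 4 libraries, 2 from batch 1 and 2 from batch 2, and libraries are named by batch and number (SF153 2.1 belongs to batch 2). The labels leave it unstated whether libraries 1.1 and 1.2 grew as separate cultures. All p-values therefore refer to spread among libraries that could be technical repeats.

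A long noncoding RNA is a transcript without a coding frame of appreciable length that is, in most cases, made by RNA polymerase II and often spliced and polyadenylated like an mRNA. Many stay in the nucleus, where some act on chromatin or on neighbouring genes, while others act in the cytoplasm by binding proteins or microRNAs. A LINC symbol is assigned by locus, to a gene lying between protein-coding genes when named, and does not imply a known function. Total RNA depleted of ribosomal RNA, as used here, also holds unspliced and unpolyadenylated transcripts, and a value for a LINC gene inside another gene on the same strand can include reads of that gene's introns.

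The deposited values are a signal that carries the names of both TPM and CPM, and whether it was scaled for transcript length is not established, so the order of levels between genes is a description of this signal. The depth of each library is unknown. Total signal lay between 828381 and 1027119, and the 2 SF153 libraries of batch 2 stood apart, with the lowest totals, 828381 and 835840, and 16.8% of signal from mitochondrially encoded genes, against 9.17% to 9.92% in the other 6 libraries. In the SF153 libraries of batch 1, RN7SK, a small nuclear RNA, made up 18.7% and 18.2% of signal, against 11.4% to 13.9% elsewhere. Of 12 myeloid markers 9 were measured, with a summed signal of 1154 to 1423 in SF153 and 1724 to 1854 in DMSO libraries. Of 5 T cell and 4 B cell markers 1 and 2 were measured, the T cell marker at 1.78 to 5.30 in SF153 and 5.36 to 9.59 in DMSO libraries and the B cell markers at a sum of 5.83 to 13.5 in SF153 and 25.9 to 32.4 in DMSO libraries. ELANE, ANPEP, CD34 and the listed erythroid, stromal and epithelial markers were not analysed here.

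Start regions are printed for the members whose RNA differed most, 3 with the largest called increase and 3 with the largest called decrease among those whose RefSeq start lay within 100 bases of the start in GENCODE release 29. Each sequence comes from RefSeq on GRCh38.p14, on the gene's own strand, and runs from 250 bases before the start through the first 50 transcribed bases. The windows are chr13:33335217-33335516 on the minus strand for LINC02344, chr9:72305186-72305485 on the plus strand for LINC01504, chr9:137027214-137027513 on the plus strand for LINC02908, chr12:92142782-92143081 on the minus strand for LINC01619, chr21:25431652-25431951 on the minus strand for LINC00158 and chr5:997291-997590 on the minus strand for LINC02982. Capitals mark matches on either strand to a set of short motifs. The core promoter motifs were the box spelled TATAAA, the box spelled CCAAT and the box for Sp proteins spelled GGGCGG. The motifs of inducible factors were the ETS family motif spelled CCGGAAG, the AP-1 motif spelled TGACTCA and the cyclic AMP response element spelled TGACGTCA. The remaining motifs were the E-box spelled CACGTG and the sterol response element spelled TCACCCCAC.
LINC02344: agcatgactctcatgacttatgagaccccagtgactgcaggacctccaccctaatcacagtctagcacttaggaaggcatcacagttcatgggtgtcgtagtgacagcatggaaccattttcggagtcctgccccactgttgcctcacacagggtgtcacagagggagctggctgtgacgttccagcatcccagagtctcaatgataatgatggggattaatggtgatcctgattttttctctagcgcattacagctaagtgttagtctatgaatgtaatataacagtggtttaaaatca
LINC01504: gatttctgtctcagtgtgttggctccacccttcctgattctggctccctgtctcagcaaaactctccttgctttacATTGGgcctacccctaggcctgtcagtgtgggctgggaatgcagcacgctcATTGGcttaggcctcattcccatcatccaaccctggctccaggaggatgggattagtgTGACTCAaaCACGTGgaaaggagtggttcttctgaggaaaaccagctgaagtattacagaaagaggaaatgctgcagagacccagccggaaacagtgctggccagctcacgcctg
LINC02908: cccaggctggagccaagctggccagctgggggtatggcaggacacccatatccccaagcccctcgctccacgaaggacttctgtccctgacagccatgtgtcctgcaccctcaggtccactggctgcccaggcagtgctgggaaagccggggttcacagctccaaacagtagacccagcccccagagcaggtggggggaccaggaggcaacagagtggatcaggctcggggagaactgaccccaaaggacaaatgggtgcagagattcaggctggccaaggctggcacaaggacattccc
LINC01619: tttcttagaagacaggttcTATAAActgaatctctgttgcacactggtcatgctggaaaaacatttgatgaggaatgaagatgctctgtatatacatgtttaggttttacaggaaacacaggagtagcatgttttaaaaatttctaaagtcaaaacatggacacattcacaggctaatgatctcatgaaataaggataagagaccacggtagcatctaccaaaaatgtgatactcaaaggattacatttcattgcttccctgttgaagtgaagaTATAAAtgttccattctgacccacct
LINC00158: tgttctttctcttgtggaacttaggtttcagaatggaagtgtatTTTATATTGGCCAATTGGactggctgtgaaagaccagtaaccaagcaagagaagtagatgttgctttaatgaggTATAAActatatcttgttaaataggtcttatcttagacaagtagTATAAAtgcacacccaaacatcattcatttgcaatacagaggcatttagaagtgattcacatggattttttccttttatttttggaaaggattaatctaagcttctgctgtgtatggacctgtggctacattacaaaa
LINC02982: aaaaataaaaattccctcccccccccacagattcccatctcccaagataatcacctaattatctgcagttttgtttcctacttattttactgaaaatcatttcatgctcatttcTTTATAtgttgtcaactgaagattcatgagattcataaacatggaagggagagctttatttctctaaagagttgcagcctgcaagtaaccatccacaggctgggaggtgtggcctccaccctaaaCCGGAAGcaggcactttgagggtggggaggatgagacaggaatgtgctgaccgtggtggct

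The first 3 windows belong to members that rose with SF153 and the last 3 to members that fell. The windows of LINC02344 and LINC02908 held none of these letters, and that of LINC01504 held 2 CCAAT boxes read on the opposite strand, an AP-1 match and an E-box match. TATAAA was present in all 3 printed windows of members that fell, with 2 matches at LINC01619 and 3 at LINC00158. LINC02982 had 1 match, read on the opposite strand. At LINC00158, 1 of the TATAAA matches, read on the opposite strand, shares its last base with the first of 3 CCAAT matches that follow it directly. RefSeq held start regions for 57 members, of which 37 began within 100 bases of the release 29 start. Among those 37, TATAAA occurred in 6, of which 1 of the 10 called higher and 3 of the 4 called lower, against 11.6% of all 34796 windows. CCAAT occurred in 14 of the 37 and in 34.6% of all windows, GGGCGG in 16 and 44.9%, CCGGAAG in 7 and 10.2%, and CACGTG in 5 and 7.2%. TGACTCA was found in 1 of the 37 and 4.96% of all windows, TGACGTCA in 3 and 1.84%, and TCACCCCAC in 0 and 0.422%. The median GC content was 58.0% in the member windows and 58.7% in all windows. The 3 printed windows of members that fell had 36.0%, 34.7% and 44.0% GC, and those of members that rose 46.7%, 53.3% and 62.7%. TATAAA holds no G or C, and its occurrence was not compared at matched GC content. Matches were counted anywhere in the window and on either strand, and their distance from the start was not compared. The later TATAAA match at LINC01619 lies among the transcribed bases. A match is a run of letters and not a shown binding site.

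After 48 h with SF153, most of these LINC genes had more signal than with DMSO. Of the 81 rows 27 rose and 4 fell at an adjusted p below 0.05, and 50 were not called. In bulk RNA, a change in RNA per cell and a change in the mix of cells cannot be told apart. Over all 15542 genes tested in the same limma fit, 13.0% were called higher and 24.3% lower, so the balance of calls among LINC genes ran opposite to that of the whole table, with 33.3% higher and 4.94% lower. The log2 difference, SF153 minus DMSO on the log2(signal + 1) scale, was above 0 in 61 rows, with a median of 0.25, quartiles of 0.03 and 0.46, and a range of -1.40 to 1.67. The median over all genes tested was -0.03. The summed signal of the members was 2243, 2247, 2244 and 2193 in SF153 libraries 1.1, 1.2, 2.1 and 2.2, against 1769, 1794, 1842 and 1860 in the same order of DMSO libraries. All 4 SF153 sums lay above all 4 DMSO sums, with means of 2232 ± 26 and 1816 ± 42.5 (SD, n = 4 each). The members held 0.219% to 0.271% of all signal in SF153 and 0.179% to 0.182% in DMSO libraries.

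Of the 81 rows, 72 reached a mean of 5 in both treatments, 6 in SF153 alone and 3 in DMSO alone. A row that reached 5 only through the treatment in which it was high had to differ, and 4 of the 6 were called higher and 1 of the 3 lower. In the 72 rows at 5 or more in both treatments 23 were called higher and 3 lower. Effects were modest in most members: 4 of the 27 increases were at least 2-fold, 11 lay between 0.5 and 1 on the log2 scale and 12 below 0.5, the smallest being 0.20. Of the 4 decreases 2 were at least 2-fold. All 31 called rows had the same sign in batch 1 and in batch 2. Their groups of 4 libraries overlapped in LINC00482, LINC01001, LINC01619 and LINC02019. The same libraries gave the calls, so equal signs and separate groups largely follow from being called and are no separate support. Their shares among all called genes were not counted.

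**Figure D1:**
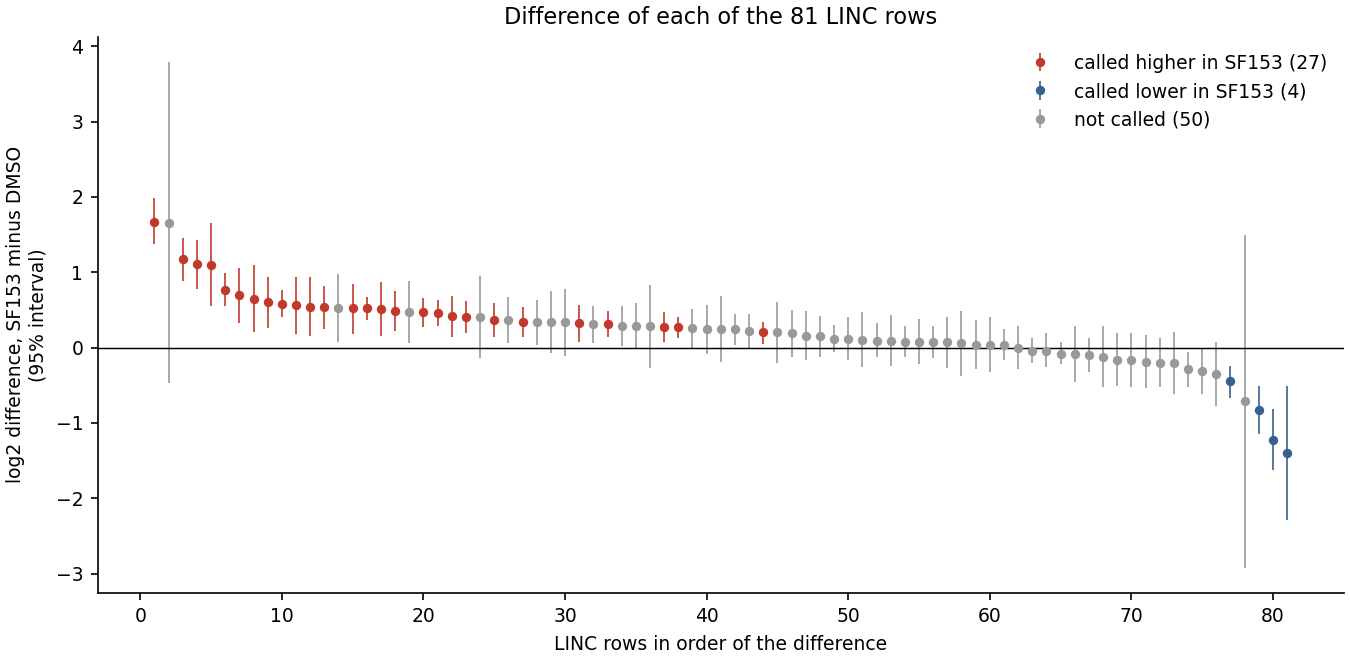
Log2 difference in signal, SF153 minus DMSO, of the 81 LINC rows in order of the difference, with 95% intervals from limma; red rows were called higher, blue rows lower, grey rows not called. Points above 0 number 61, and the widest intervals belong to the 2 copies of LINC00106.

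Other long noncoding genes had a similar balance of calls. Among 950 other lncRNA genes with a mean of 5 or more, 30.1% were called higher and 6.63% lower, with a median log2 difference of 0.23. Among 9304 protein-coding genes with a mean of 5 or more, 11.7% were called higher and 36.4% lower, with a median of -0.17. LINC genes under a mean of 5 had a median of 0.23 over the 103 tested, of which 14 were called higher and 4 lower. These counts are a description, with no test of a list.

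**Figure D2:**
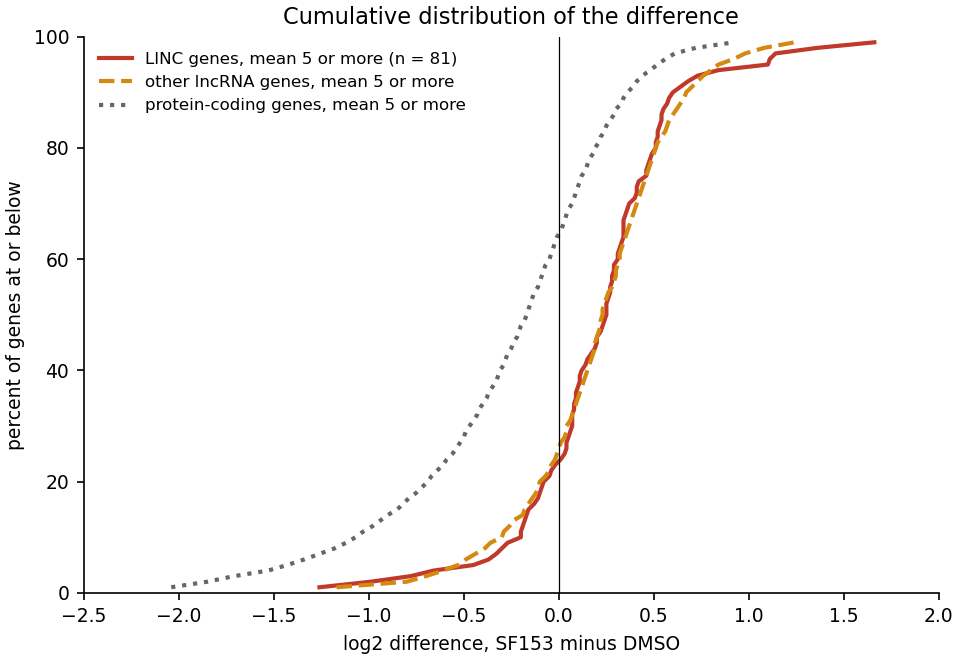
Cumulative percentage of genes (vertical) at or below each log2 difference, SF153 minus DMSO (horizontal), between the 1st and the 99th percentile. The curve of the LINC genes lies close to that of other lncRNA genes, medians 0.25 and 0.23, and to the right of that of protein-coding genes, median -0.17.

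A share-type signal depends on what else is in the library, and the direction over all genes depended on scaling. The higher and lower calls over all genes were 2015 and 3770 as deposited, 2565 and 3287 after median-of-ratios scaling, 3230 and 2814 after quantile normalization, and 5434 and 2110 after removal of mitochondrially encoded and small RNA genes. The median of all genes moved up by 0.0652, 0.101 and 0.316 under these 3 scalings. The LINC median moved with it, to 0.31, 0.39 and 0.58. Relative to the median of all genes, the LINC median was higher by 0.28 as deposited and by 0.28, 0.32 and 0.30 under the 3 scalings. LINC calls were 36 higher and 4 lower, 40 and 3, and 56 and 3 under these scalings, and none of the 31 called rows changed sign.

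LINC02344 showed the largest increase. This gene of 2 exons and 644 transcribed bases lies on chromosome 13, chr13:33333679-33335277 on GRCh38, minus strand, inside the larger gene STARD13 on the same strand. Its signal was 103, 133, 94.2 and 111 in SF153 libraries 1.1, 1.2, 2.1 and 2.2, against 29.5, 28.9, 38.9 and 38.7 in the DMSO libraries in the same order. The lowest SF153 library was above the highest DMSO library by a wide margin. The log2 difference was 1.67 ± 0.14 (SE; limma adjusted p = 3.89e-05), 1.97 within batch 1 and 1.38 within batch 2. STARD13, which encodes a protein with a START domain, had 400.1, 373, 366 and 368 in SF153 and 133, 139, 126 and 135 in DMSO libraries, a log2 difference of 1.49 ± 0.06 (limma adjusted p = 2.5e-06). The longest basic transcript of LINC02344 shares 0% of its 31-base words with annotated transcripts of other genes. Exonic STARD13 reads would thus not match that transcript. Reads of unspliced STARD13 RNA, however, cannot be told apart from LINC02344 in values of this kind.

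LINC01504, LINC01588 and LINC01226 also rose at least 2-fold. LINC01504, on chr9:72305430-72343210, plus strand, had 8.62, 9.21, 7.69 and 9.07 in SF153 and 3.38, 2.71, 3.36 and 3.73 in DMSO libraries. The groups were far apart, at 1.17 ± 0.13 (SE, log2; limma adjusted p = 0.000136), and the member passed the mean of 5 only through SF153. Its neighbour at 8215 bases, ZFAND5, a zinc finger protein linked to proteasomal degradation, had 70.0, 59.6, 65.3 and 66.2 in SF153 and 85.2, 73.2, 75.8 and 78.4 in DMSO libraries and was called lower at -0.26 ± 0.08 (limma adjusted p = 0.0263). As deposited, LINC01504 and ZFAND5 thus moved in opposite directions. The fall of ZFAND5 is smaller than the 0.316 by which removal of mitochondrially encoded and small RNA genes raised the median of all genes.

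LINC01588, on chr14:49927571-50092643, minus strand, had 13.6, 15.1, 12.8 and 14.1 in SF153 and 4.75, 6.85, 7.39 and 4.99 in DMSO libraries. All SF153 values exceeded all DMSO values, with a log2 difference of 1.11 ± 0.15 (SE; limma adjusted p = 0.000343). The nearest protein-coding gene, VCPKMT, which encodes a lysine methyltransferase of the segregase VCP, had 10.3, 16.4, 12.8 and 12.5 in SF153 and 12.1, 14.6, 13.8 and 13.8 in DMSO libraries. VCPKMT was not called, at -0.08 ± 0.14. LINC01226, on chr1:31506226-31583306, plus strand, had 6.93, 6.91, 8.47 and 7.07 in SF153 and 4.35, 1.97, 4.32 and 1.69 in DMSO libraries. DMSO 1.1 and 2.1 were higher than DMSO 1.2 and 2.2, all 4 lay below SF153, and it rose by 1.10 ± 0.24 (SE, log2; limma adjusted p = 0.00625). It too passed the mean of 5 only through SF153.

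Smaller increases were seen in LINC02969, LINC02908, LINC02019 and LINC02245. LINC02969, on chr2:97416165-97433527, had 106, 96.3, 113.4 and 119 in SF153 and 64.0, 66.3, 69.2 and 53.6 in DMSO libraries, 0.77 ± 0.10 on the log2 scale (SE; limma adjusted p = 0.000288). LINC02908, on chr9:137027464-137037957, had 32.9, 27.5, 38.2 and 28.2 in SF153 and 14.7, 21.2, 17.0 and 24.6 in DMSO libraries, 0.70 ± 0.16 (limma adjusted p = 0.00858). In both the groups were separate, by a narrower gap in LINC02908. LINC02019, on chr3:50669989-50672048 and made of a single exon, had 6.56, 7.999, 8.80 and 7.91 in SF153 and 3.06, 5.23, 6.70 and 4.09 in DMSO libraries, 0.65 ± 0.20 (limma adjusted p = 0.0283). Its groups overlapped through DMSO 2.1, it passed the mean of 5 only through SF153, and the call was lost without any 1 of SF153 1.2, SF153 2.1, SF153 2.2, DMSO 1.1 or DMSO 2.2. LINC02245, on chr2:64901840-64905137, had 31.4, 36.0, 23.3 and 29.6 in SF153 and 18.2, 20.9, 23.0 and 15.8 in DMSO libraries, 0.60 ± 0.15 (limma adjusted p = 0.0112). Its SF153 2.1 and DMSO 2.1 values nearly met.

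The protein-coding neighbours of LINC02969 and LINC02908 differed from each other. ANKRD36B, an ankyrin repeat gene 59136 bases from LINC02969 on the same strand, had 99.1, 115, 116 and 112.6 in SF153 and 84.4, 79.9, 83.6 and 84.8 in DMSO libraries, and rose by 0.40 ± 0.07 (SE, log2; limma adjusted p = 0.00166). ABCA2, a lipid transporter of endosomes and lysosomes that overlaps LINC02908 on the opposite strand, had 25.6, 23.2, 30.1 and 38.3 in SF153 and 35.5, 34.3, 33.0 and 32.6 in DMSO libraries, and was not called at -0.23 ± 0.14. Its SF153 libraries were below DMSO in batch 1 and on either side of DMSO in batch 2.

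Of the 4 members that fell, LINC01619 showed the largest decrease. Its signal was 1.29, 2.80, 8.28 and 2.53 in SF153 libraries, against 9.56, 11.7, 13.8 and 5.96 in DMSO libraries. SF153 2.1 lay above DMSO 2.2, so the groups overlapped. The log2 difference was -1.40 ± 0.40 (SE; limma adjusted p = 0.0206), and the call was lost without SF153 2.2, DMSO 1.2 or DMSO 2.1. LINC01619 passed the mean of 5 only through DMSO. The gene, on chr12:91984976-92142914, minus strand, begins inside BTG1 on the same strand, with 2983 bases between the 2 starts. BTG1, an antiproliferative protein that takes part in mRNA deadenylation, had 69.9, 67.6, 70.3 and 63.6 in SF153 and 134, 135, 142 and 140.2 in DMSO libraries. The BTG1 groups were far apart, and it fell by 1.01 ± 0.06 on the log2 scale (SE; limma adjusted p = 1.3e-05). LINC01619 shares 1.5% of its words with BTG1.

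LINC00158, on chr21:25385820-25431701, minus strand, had 13.8, 11.2, 12.04 and 6.96 in SF153 and 24.0, 27.5, 24.2 and 30.4 in DMSO libraries. Every SF153 value was well under every DMSO value, and the gene fell by 1.23 ± 0.18 on the log2 scale (SE; limma adjusted p = 0.00066). The nearest protein-coding gene, MRPL39 at 153955 bases on the same strand, encodes a protein of the mitochondrial ribosome. MRPL39 had 3.22, 2.50, 1.43 and 3.25 in SF153 and 11.8, 7.94, 10.2 and 10.8 in DMSO libraries, and fell by 1.66 ± 0.21 (SE, log2; limma adjusted p = 0.000246).

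LINC02982, on chr5:987180-997308, minus strand, had 8.35, 9.68, 7.87 and 6.27 in SF153 and 17.3, 16.1, 12.8 and 13.8 in DMSO libraries, and fell by 0.83 ± 0.14 on the log2 scale (SE; limma adjusted p = 0.00167). The groups did not overlap, and the difference was -0.82 in batch 1 and -0.84 in batch 2. NKD2, an antagonist of Wnt signalling that begins 11521 bases away on the opposite strand, had 17.2, 13.4, 12.5 and 13.6 in SF153 and 16.2, 16.7, 21.0 and 18.7 in DMSO libraries. NKD2 was not called, at -0.34 ± 0.12 (limma adjusted p = 0.0585), with SF153 1.1 above 2 of the DMSO libraries. LINC00960, on chr3:75672391-75679303, plus strand, had 13.2, 12.4, 14.8 and 13.9 in SF153 and 18.1, 21.1, 19.2 and 17.6 in DMSO libraries. Its groups were separate and it fell by 0.45 ± 0.10 (SE, log2; limma adjusted p = 0.00473), but this call, unlike those of LINC00158 and LINC02982, was lost under quantile normalization and without mitochondrially encoded and small RNA genes.

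**Figure D3:**
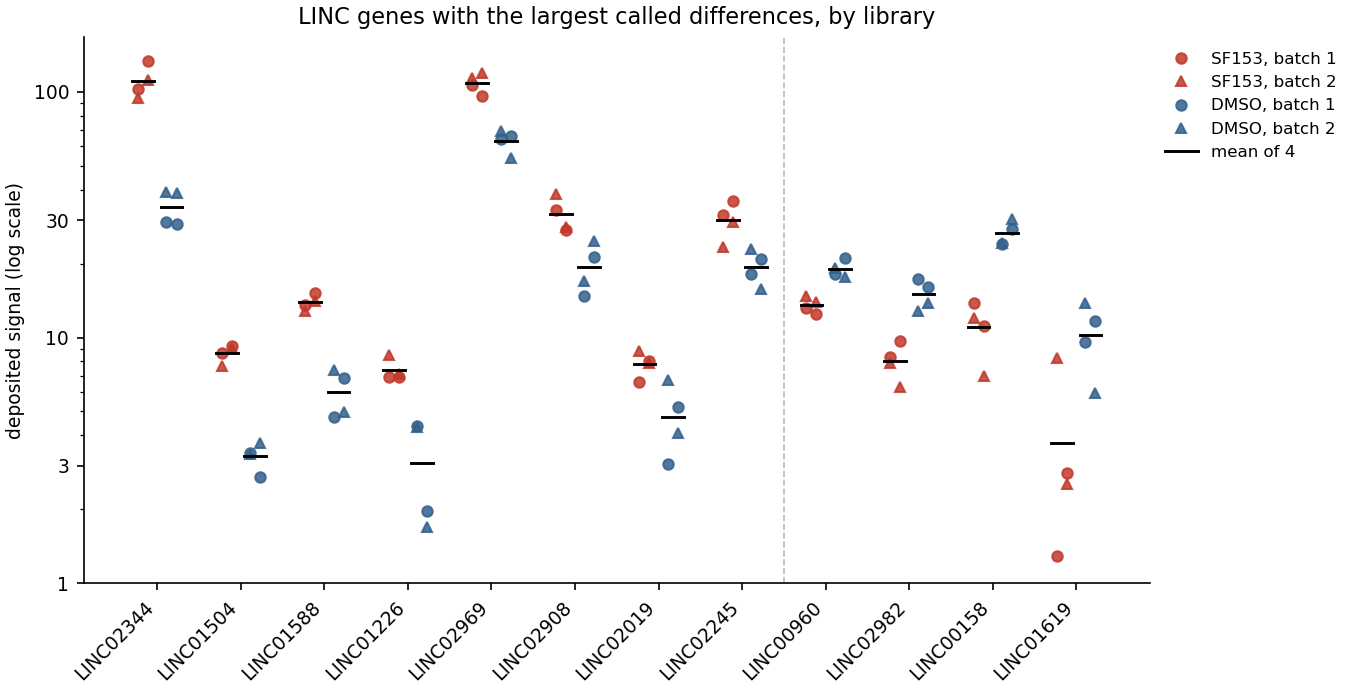
Deposited signal per library (log scale) of the 8 LINC genes with the largest called increases and, right of the dashed line, the 4 called lower; red SF153 and blue DMSO, circles batch 1 and triangles batch 2, bars the mean of 4 libraries. The groups overlap in LINC02019 and LINC01619 and are separate in the other 10 genes.

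The 5 LINC genes with the highest mean signal, LINC02969 among them, all rose. Among all 81 rows 33.3% were called higher, and among all genes tested 13.0%. LINC00342 shares 44.4% of its words with LINC02969, so the 5 are not fully separate in sequence. Spearman's rho between mean signal and difference was 0.04 over 80 members, and LINC01002, with a mean of 70.3, was not called. LINC02910 had 168, 151, 139.6 and 139 in SF153 and 108, 95.5, 112.97 and 115 in DMSO libraries, 0.47 ± 0.09 on the log2 scale (SE; limma adjusted p = 0.00259). LINC00342 had 133, 142, 163 and 164 in SF153 and 99.3, 97.7, 99.5 and 103 in DMSO libraries, 0.58 ± 0.08 (limma adjusted p = 0.000497). In both genes the batches ran in opposite order within SF153, batch 1 being higher in LINC02910 and batch 2 in LINC00342. LINC02870 had 87.4, 82.5, 89.4 and 82.1 in SF153 and 60.1, 71.2, 72.3 and 71.2 in DMSO libraries, 0.31 ± 0.08 (limma adjusted p = 0.0114). LINC01410 had 78.0, 82.0, 82.2 and 77.0 in SF153 and 66.4, 68.8, 62.5 and 66.2 in DMSO libraries, 0.27 ± 0.06 (limma adjusted p = 0.00797). The groups were separate in all 4 of these genes. By mean over all 8 libraries the members ran from 5.02 to 129, with a median of 15.5, and 11 had a mean of 50 or more.

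Of 18 LINC genes listed for a described role, 9 were members, with 3 called higher and 0 lower. The shares were 33.3% higher and 4.94% lower among all 81 rows, and 13.0% and 24.3% over all genes tested. The list is too short to be set apart from either. LINC00662, studied as a promoter of growth in several carcinomas, had 46.4, 46.6, 51.2 and 52.1 in SF153 and 32.4, 35.6, 36.6 and 37.2 in DMSO libraries, and rose by 0.46 ± 0.08 on the log2 scale (SE; limma adjusted p = 0.00145). LINC00667 had 12.6, 17.7, 12.5 and 11.5 in SF153 and 9.09, 10.7, 7.71 and 8.96 in DMSO libraries, and rose by 0.52 ± 0.15 (limma adjusted p = 0.0222). Both had separate groups, but the LINC00667 call was lost without DMSO 2.1. LINC00342, given above, was the other called gene of the list. LINC02987, which starts next to LINC00662 on the opposite strand of chromosome 19, had 46.4, 44.6, 32.6 and 38.7 in SF153 and 37.2, 32.6, 37.8 and 45.9 in DMSO libraries and was not called, at 0.08 ± 0.13. The difference between these 2 genes was not tested.

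The other 6 listed genes were not called. LINC00963, studied in the progression of prostate cancer, had 28.4, 28.7, 31.2 and 28.8 in SF153 and 26.9, 26.1, 26.2 and 19.1 in DMSO libraries, and its groups were separate at 0.26 ± 0.11 (SE, log2; limma adjusted p = 0.107). LINC00304 had 8.91, 11.7, 11.9 and 10.2 in SF153 and 7.32, 5.29, 10.6 and 7.07 in DMSO libraries, 0.47 ± 0.18 (limma adjusted p = 0.0707). LINC01138, which binds the arginine methyltransferase PRMT5 in liver cancer cells, had 41.8, 40.7, 38.5 and 39.4 in SF153 and 38.1, 32.3, 40.4 and 41.3 in DMSO libraries, 0.08 ± 0.09 (limma adjusted p = 0.521). The groups of LINC00304 and LINC01138 overlapped. LINC00339, which lies near CDC42 at a locus linked to endometriosis and bone density, had 17.1, 17.5, 16.2 and 17.3 in SF153 and 15.7, 18.5, 14.0 and 15.7 in DMSO libraries, 0.09 ± 0.10. LINC00265 had 19.1, 19.0, 20.1 and 20.5 in SF153 and 19.98, 16.6, 17.6 and 20.9 in DMSO libraries, 0.07 ± 0.09. LINC00847 had 9.58, 12.5, 11.2 and 9.44 in SF153 and 10.8, 9.48, 13.1 and 8.42 in DMSO libraries, 0.04 ± 0.15. The groups overlapped in LINC00339, LINC00265 and LINC00847, and their differences were smaller than their standard errors.

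The remaining called increases lay between 0.20 and 0.56 on the log2 scale. LINC02615, LINC02575, LINC02021, LINC02985 and LINC00482 rose by 0.56, 0.54, 0.54, 0.52 and 0.51. The LINC02615 call was lost without any 1 of SF153 1.1, SF153 2.2, DMSO 1.1, DMSO 1.2 or DMSO 2.1, and the LINC00482 call without any 1 of SF153 1.1, SF153 2.2, DMSO 1.1, DMSO 1.2 or DMSO 2.2. LINC02021, which passed the mean of 5 only through SF153, lost its call without SF153 1.1, SF153 2.1 or any 1 of the 4 DMSO libraries. LINC02985 was the most precise of these, with 72.9 ± 4.06 in SF153 and 50.7 ± 2.11 in DMSO libraries (SD, n = 4 each) and an SE of 0.07 (limma adjusted p = 0.000395). LINC00205, LINC00174, LINC00921, LINC00426 and LINC00852 rose by 0.49, 0.42, 0.41, 0.37 and 0.34, and the LINC00174 call was lost without any 1 of SF153 2.1, SF153 2.2, DMSO 1.1 or DMSO 1.2. LINC01001, LINC00355 and LINC01089 rose by 0.32, 0.27 and 0.20. LINC01001 and LINC00355 each lost their call without any 1 library other than SF153 1.2, and LINC01001 also with no filter on low values or no intensity trend. LINC01089, a transcript described as an inhibitor of metastasis in breast cancer and also called LIMT, had 75 ± 2.52 in SF153 and 65.4 ± 2.56 in DMSO libraries (SD, n = 4 each; limma adjusted p = 0.0361). Its groups were separate, but its call was lost without any 1 of the 8 libraries. LINC01089 also shares 56.5% of its words with RHOF, which it overlaps on the same strand. RHOF was not called, at -0.20 on the log2 scale (limma adjusted p = 0.0977). The sum of both was 104.7 ± 3.21 in SF153 and 99.6 ± 2.52 in DMSO libraries (SD, n = 4 each). How reads were divided between LINC01089 and RHOF was not tested. Of the 31 called members 10 kept their call under all 22 alternatives run for a member, namely LINC00158, LINC00342, LINC00662, LINC01504, LINC01588, LINC02344, LINC02910, LINC02969, LINC02982 and LINC02985.

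The 50 rows that were not called comprised 34 above 0 and 16 below. The 2 copies of LINC00106 were the extremes, at 1.66 ± 0.95 and -0.71 ± 0.99 on the log2 scale, and each was listed at 0 in some libraries where the other copy carried the signal. Summed over both copies, LINC00106 had 14.4, 13.2, 9.46 and 13.1 in SF153 and 8.91, 10.4, 6.84 and 5.36 in DMSO libraries. The sum was 12.5 ± 2.12 in SF153 and 7.88 ± 2.23 in DMSO libraries (SD, n = 4 each), 0.63 ± 0.20 on the log2 scale (SE; limma adjusted p = 0.0315). The groups of the sum overlapped, since SF153 2.1 lay below DMSO 1.2. Apart from LINC00106, uncalled members ranged from LINC01220 at -0.35 ± 0.19 to LINC00649 at 0.52 ± 0.20 (limma adjusted p = 0.0708). LINC00539 came nearest to a call on the lower side, with 25.7 ± 3.60 in SF153 and 31.5 ± 1.87 in DMSO libraries (SD, n = 4 each), -0.29 ± 0.11 (limma adjusted p = 0.054). LINC00630 came nearest on the higher side, with 17.7 ± 2.08 in SF153 and 14.0 ± 1.16 in DMSO libraries (SD, n = 4 each), 0.31 ± 0.11 (limma adjusted p = 0.052).

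Some uncalled members varied little among libraries, which gave narrow intervals for the signal as deposited. LINC00461, which hosts the microRNA gene MIR9-2 of the neural miR-9 family, had 41.8 ± 2.15 in SF153 and 42.9 ± 2.36 in DMSO libraries (SD, n = 4 each), with a 95% interval of the log2 difference from -0.20 to 0.13. LINC03021 had 56.0 ± 1.24 in SF153 and 59.2 ± 3.04 in DMSO libraries, with an interval from -0.22 to 0.07. LINC00641 had 28.6 ± 1.94 in SF153 and 26.2 ± 1.49 in DMSO libraries, with an interval from -0.06 to 0.30. These intervals cover spread among libraries and not the choice of scaling. Over the alternatives the log2 difference reached 0.3 in LINC00461, 0.26 in LINC03021 and 0.46 in LINC00641, above the upper end of each interval. For other members the interval was wide, as for LINC02863, with 32.2 ± 10.8 in SF153 and 25.8 ± 6.44 in DMSO libraries and an interval from -0.27 to 0.83.

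At the threshold, the members with the lowest means were LINC00106 at 5.02 and 5.18 for its 2 copies and LINC01220 at 5.10. Just outside were LINC02980 at 4.96, LINC02018 at 4.84 and LINC00938 at 4.79. LINC02980 averaged 5.58 in SF153 and 4.33 in DMSO libraries, LINC02018 averaged 6.59 in SF153 and 3.10 in DMSO libraries, and LINC00938 averaged 4.90 in SF153 and 4.69 in DMSO libraries.

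Several LINC genes belong to duplicated families whose copies the authors' counting could split. In 11 members at least 20% of the 31-base words of the longest basic transcript also occur, on the same strand, in transcripts of other genes. For LINC02969 the share was 100%, all of it in the gene ENSG00000277701, and the sum of both was 158.6 ± 16.1 in SF153 and 91.8 ± 6.10 in DMSO libraries (SD, n = 4 each). That copy alone had a log2 difference of 0.78 (limma adjusted p = 0.000328), close to the 0.77 of LINC02969, so the pair rose whichever way reads were divided. LINC00342 shares 45.2% of its words, mostly with LINC02969, and their sum was 259 ± 23.8 in SF153 and 163 ± 4.91 in DMSO libraries. LINC01002, LINC01001, LINC00623, LINC01409, LINC02256, LINC01089, LINC01410, LINC00265 and LINC00304 shared between 30.6% and 95.7%. Single values of these members are uncertain to that extent. Among the 70 rows outside this group 22 were called higher and 4 lower, with a median of 0.21.

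The nearest protein-coding genes of the members were compared in the same fit. A position was available for 80 members, and for 53 of them the nearest protein-coding gene was tested, 52 distinct genes in all. Of these 52 genes 3 were called higher, 20 lower and 29 not called, or 5.77% higher and 38.5% lower, against 11% higher and 32.5% lower among all 11085 protein-coding genes tested. The split depended on scaling, with 17 higher and 13 lower once mitochondrially encoded and small RNA genes were removed. As deposited, the 3 higher were STARD13, ANKRD36B and ANKRD36C, beside LINC02344, LINC02969 and LINC00342. LINC02344 lies inside STARD13 on the same strand, and LINC00342 shares 44.4% of its words with LINC02969, so these are not 3 independent pairs. Of the 20 members called higher with a tested neighbour, 3 had a neighbour called higher, 4 called lower and 13 not called. Of the 3 members called lower with a tested neighbour, 2 had a neighbour called lower, BTG1 and MRPL39. The Spearman rho between the log2 differences of member and neighbour was 0.39, and Pearson's r was 0.48, over 53 pairs measured in the same libraries. Both are descriptions.

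Members and neighbours on the same strand cannot always be separated in total RNA. Of the 80 members 19 overlapped their neighbour, 12 on the same strand and 7 on the opposite strand. The opposite-strand pairs included LINC00649 and ATP5PO, a subunit of ATP synthase, whose starts lie 446 bases apart. LINC00649 was not called at 0.52 ± 0.20, whereas ATP5PO was called lower at -1.84 (limma adjusted p = 0.00049). The genes with divergent starts within 1000 bases were LINC01126 with ZFP36L2, which encodes an mRNA decay factor, and LINC00205 with POFUT2, an O-fucosyltransferase. LINC01126 had 9.30 ± 0.718 in SF153 and 9.54 ± 0.381 in DMSO libraries (SD, n = 4 each), -0.04 ± 0.10 on the log2 scale, while ZFP36L2 was called lower at -0.92 (limma adjusted p = 5.77e-05). LINC00205 had 11.2 ± 0.657 in SF153 and 7.71 ± 1.12 in DMSO libraries and rose by 0.49 ± 0.12 (limma adjusted p = 0.00971), while POFUT2 was not called at 0.35 (limma adjusted p = 0.0754). LINC01220, 12174 bases from the immediate early gene FOS, was not called at -0.35 ± 0.19, and FOS was called lower at -0.34 (limma adjusted p = 0.00408). The median distance to the neighbour was 7700 bases, and 10 members lay more than 100000 bases away.

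**Figure D4:**
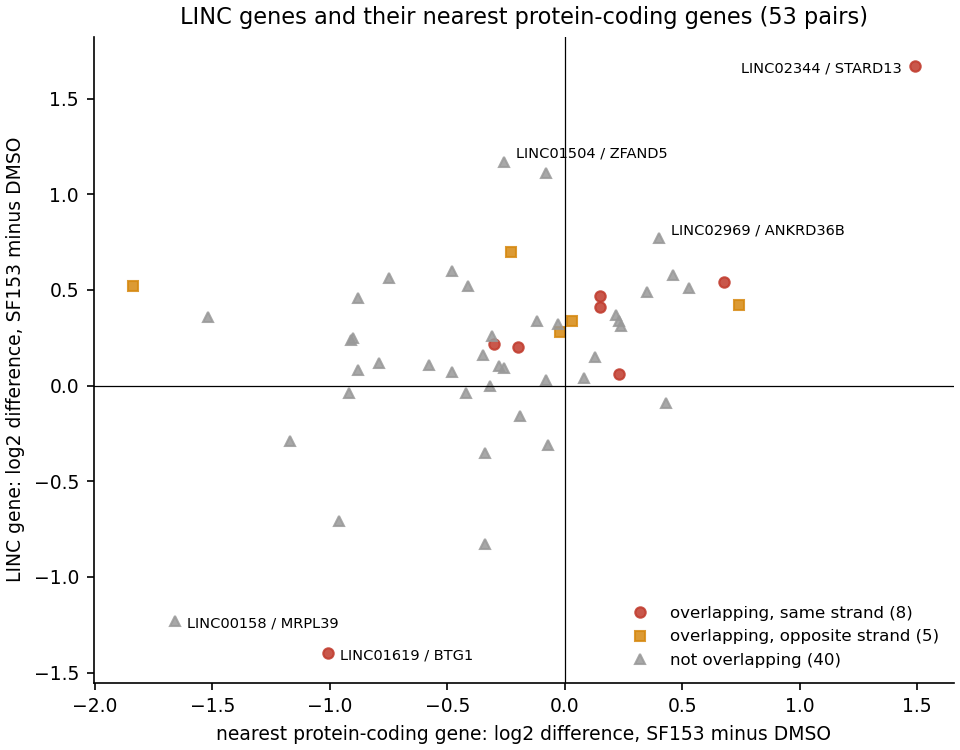
Log2 difference, SF153 minus DMSO, of each LINC gene (vertical) and of its nearest protein-coding gene (horizontal) for the 53 pairs with a tested neighbour; symbols mark overlap and strand. LINC02344 with STARD13 lies at the upper right and LINC01619 with BTG1 at the lower left, while many neighbours at negative values accompany LINC genes at or above 0.

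Calls among LINC genes were also counted by transcript length. Of 26 members shorter than 1000 bases 3 were called higher and 0 lower, with a median log2 difference of 0.09. Of 30 members from 1000 to under 2500 bases 13 were called higher and 3 lower, with a median of 0.26. Of 24 members of 2500 bases or more 11 were called higher and 1 lower, with a median of 0.29. The medians over all genes tested in these classes were 0.14, -0.12 and -0.06. Of these genes 11%, 13% and 13.7% were called higher, and 14.6%, 32.1% and 24.4% lower. In the shortest class the share of members called higher was close to that of all genes. Spearman's rho between length and difference was 0.30 over 80 members and -0.05 over 15067 tested genes with a length. It was -0.03 for the number of exons, 0.01 for GC content and 0.04 for mean signal over the 80 members. Lengths ran from 370 bases in LINC00106 to 9557 in LINC00963, with a median of 1888, and 8 members had a single exon.

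**Figure D5:**
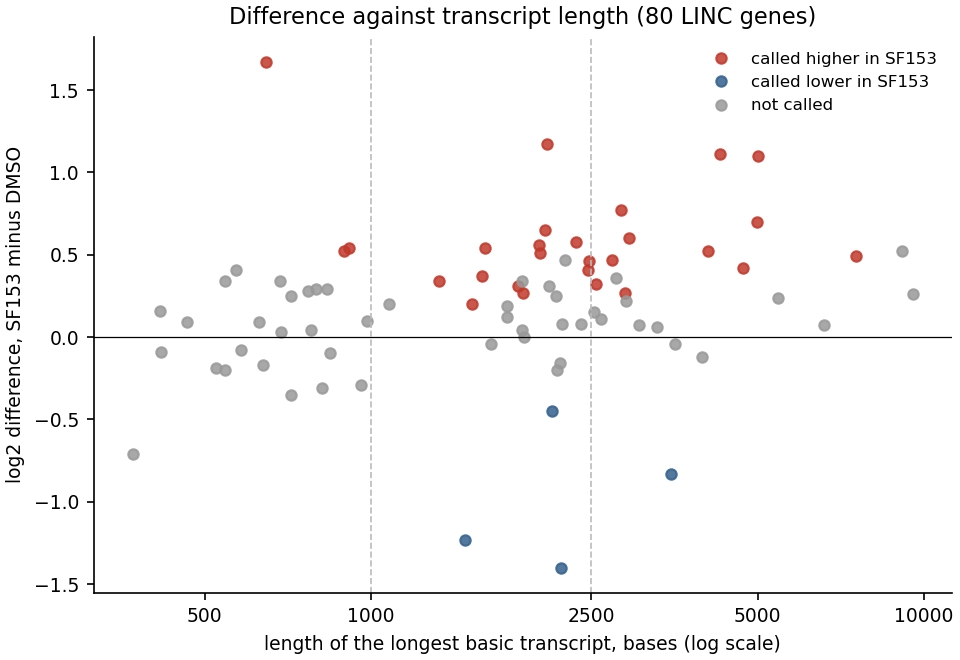
Log2 difference, SF153 minus DMSO (vertical), against the length of the longest basic transcript (horizontal, log scale) for 80 LINC genes; colours mark calls and dashed lines stand at 1000 and 2500 bases. Below 1000 bases 3 of 26 members were called higher, at 2500 bases or more 11 of 24, against 11% and 13.7% of all genes tested.

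The batches were compared in the same fit by the interaction of treatment and batch. It was called in 0 of the 81 rows by limma with an intensity trend, and in 1.15% of all genes tested. Of the 81 rows 5 had an unadjusted p below 0.05, and the lowest adjusted p was 0.309. Fitted alone, batch 1 gave 14 members higher and 4 lower, with a median of 0.26, and batch 2, which holds the SF153 libraries with 16.8% mitochondrial signal, gave 9 higher and 2 lower, with a median of 0.21. With 2 libraries against 2, calls were also fewer over all genes, 973 higher and 2443 lower in batch 1, and 957 higher and 2637 lower in batch 2.

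A fixed list of long noncoding RNAs known under other names was read in the same fit. Of 30 such genes 29 were tested, with 7 called higher, 11 lower and a median of -0.11. Over all genes tested 13.0% were called higher and 24.3% lower. Among the 950 other lncRNA genes with a mean of 5 or more the shares were 30.1% and 6.63%. The list does not stand for lncRNA genes at large, since hosts of small nucleolar RNAs gave 8 of its 11 lower calls. The nuclear RNAs NEAT1 and MALAT1, which mark paraspeckles and nuclear speckles, rose by 0.92 and 0.69 on the log2 scale (limma adjusted p = 8.41e-05 and 0.00244). MALAT1 had 22617 ± 143 in SF153 and 14050 ± 575 in DMSO libraries (SD, n = 4 each). Of the 10 listed genes that host small nucleolar RNAs, grouped after their values were seen, 8 were called lower, among them SNHG5 at -1.29, DANCR at -1.19, SNHG6 at -0.80 and GAS5 at -0.50 (limma adjusted p = 0.000333, 0.000436, 0.000223 and 0.00185). SNHG12 at -0.11 and EPB41L4A-AS1 at -0.32 were not called (limma adjusted p = 0.209 and 0.0627). Without mitochondrially encoded and small RNA genes 4 of the 10 were called lower and 1 higher. The counts on this list turn with scaling, since without mitochondrially encoded and small RNA genes 14 were called higher and 4 lower.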

How the data were processed

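RNA-seq of total RNA from NKM-1 cells was deposited as gene tables, 4 files with 2 libraries each, holding an identifier, a symbol, a biotype and 1 value column per library. The values are a signal whose tables the authors named with both TPM and CPM, and length scaling is not established. Because the columns do not sum to a common total (828381 to 1027119), they were recorded as signal, although the plan had assumed TPM, and the same test was used. Per the submitters' processing notes, CASAVA 1.8.2, STAR, Salmon, edgeR and GRCh38 were involved, without stated roles. Per the labels' protocols, libraries kept strand information. Of the value columns 4 were spelled differently from their labels and were matched by number, letter, index pair and sample number. Depth is unknown, so no counting interval is given.

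The test was limma's moderated test (limma 3.58.1, R 4.3.3) with an intensity trend, applied to log2(signal + 1) of 4 SF153 against 4 DMSO libraries, with no batch term, for the 15542 genes with a mean of at least 1, two-sided, with Benjamini-Hochberg adjustment over all of them and calls below 0.05. This scale understates changes of low genes. The script was tested on simulated data. Positions, exons and lengths are those of GENCODE release 29 on GRCh38. Shared sequence is the percentage of 31-base words of a member's longest basic transcript that occur, on the same strand, in transcripts of other genes. Further transcripts of a member were not compared.

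Members and lists were chosen with earlier results of these data known. Library values were given for the 8 largest called increases, up to 8 called decreases, the 5 highest means, a list of LINC genes with a described role, and up to 8 nearest protein-coding genes. Further members were named by call, by nearness to the threshold or by neighbour, after their values were seen. Pairing by batch comes from the labels' batch number. Across genes, deviations from group means of same-batch libraries of the other treatment had a mean r of 0.026, and other-batch libraries -0.026. Centering on group means ties the other-batch value to about the negative of the same-batch value, so it is not a separate observation. Alternatives covered the pseudocount, filters, scaling, the variance model, batch, averaging, single libraries left out and the member threshold. Added after the data were seen were the summed copies of LINC00106 and the removal of members with shared words.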

Additional observations from a re-analysis of the deposited data

Results flagged for a closer look

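Within each treatment, the gap between an extreme library and its nearest neighbour was divided by the range of the 4 libraries, and 11 of the 162 groups of member values exceeded Dixon's critical ratio at 95% for 4 values. Chance flags about 1 in 20 groups, so a few such groups are to be met without any cause, and none was tested.

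In SF153, single libraries stood apart in 4 members. LINC00426 had the highest ratio, 0.985, with 35.8 in SF153 2.2 and 30.7 to 30.8 in the other 3 SF153 libraries. LINC01226 had 8.47 in SF153 2.1 and 6.91 to 7.07 in the others, a ratio of 0.893. LINC00963 had 31.2 in SF153 2.1 and 28.4 to 28.8 in the others, a ratio of 0.863. LINC02256 had 53.8 in SF153 1.1 and 31.1 to 34.5 in the others, a ratio of 0.849.

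In DMSO, 7 groups were set apart. DMSO 1.1 was low in LINC02870, at 60.1 against 71.2 to 72.3 in the other DMSO libraries (ratio 0.910), in LINC02449, at 5.74 against 7.62 to 7.88 (0.876), and in LINC00852, at 21.1 against 24.8 to 25.4 (0.859). The second copy of LINC00106 was at 8.91 in DMSO 1.1 and at 0 to 0.560 in the others, a ratio of 0.937. LINC00963 was low in DMSO 2.2, at 19.1 against 26.1 to 26.9 (0.904), and LINC01388 was high there, at 31.1 against 19.6 to 20.8 (0.895). LINC00863 was low in DMSO 2.1, at 7.27 against 11.04 to 11.6 (0.876). Without DMSO 1.1 LINC02870 and LINC00852 were still called higher.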

How the results depend on the processing

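Batch as a block, paired by the labels' batch number, gave 28 members called higher and 4 lower and 5943 genes called in all, with 0 called members lost and 1 gained. Under that block neighbours called higher were 5 in place of 3. The members called higher, 27 as reported, numbered 56 without mitochondrially encoded and small RNA genes, 43 with the trend on length and mean removed, 11 with libraries averaged by treatment and batch, 14 in batch 1 alone and 9 in batch 2 alone. The members called lower, 4 as reported, numbered 2 with averaged libraries, 2 in batch 2 alone and 7 at a member mean of at least 2. All genes called, 5785 as reported, numbered 3429 with averaged libraries, 3416 in batch 1 alone and 3594 in batch 2 alone. These last 3 fits hold fewer samples, and for the others the cause was not tested. The median of the members, 0.25 as reported, was 0.18 with a pseudocount of 5, 0.31 after median-of-ratios scaling, 0.39 after quantile normalization, 0.58 without mitochondrially encoded and small RNA genes, 0.51 with the trend removed, 0.21 in batch 2 alone, 0.20 at a member mean of at least 10 and 0.21 without members that share words with other genes. Leaving out a single library gave 19 to 26 members higher, 3 to 5 lower, 4886 to 5371 genes called in all and a median of 0.20 to 0.26 (0.22 without DMSO 2.2). The treatment by batch interaction was called in 0 members under each alternative run for it. Of the 31 called members 10 lost their call without at least 1 single library, 0 changed sign under any of the 22 alternatives, and 34 uncalled members were called under at least 1. Neighbours called higher, 3 as reported, numbered 7, 9 and 17 under median-of-ratios scaling, quantile normalization and removal of mitochondrially encoded and small RNA genes, and neighbours called lower, 20 as reported, numbered 15, 13 and 13.

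Precision is limited by 4 libraries per treatment, by unknown depth and by low signal, since 27 members had a mean below 10. The libraries of a treatment and batch may be technical repeats, and averaging them leaves 2 against 2. The mitochondrial share is high in both SF153 libraries of batch 2, and its part in the member values was not tested beyond batch 1 alone and the removal of those genes.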
